A study of Mus musculus with 35 samples.

Results

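The 33 genes described here encode proteins that detect, signal and repair DNA breaks. They were listed by symbol, and each of the 33 symbols was found among the 19085 genes of the deposited table. By role they fall into 11 genes of homologous recombination, 4 of the Fanconi anaemia pathway, 8 of end joining and break ligation, 7 of checkpoint signalling and 3 of cohesin. Levels were compared between 2 groups of embryonic fibroblasts (MEFs, a cultured connective tissue cell) from mice of the C57Bl/6J strain, kept at 3% oxygen. Both groups had received 1 Gy of ionising radiation 48 h before capture, so no unirradiated cell enters any value below. The 21 cells of the first group contained micronuclei, small bodies of chromatin outside the main nucleus that were seen with a DNA stain, and the 14 cells of the second group contained none. Each cell had been reseeded 32 h after the dose, was cut out by laser and was sequenced on its own by Smart-seq2, a full-length method for polyadenylated RNA.

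A DNA break is first bound by sensors, among them the complex of Mre11, Rad50 and Nbn, and the kinases Atm and Atr then phosphorylate histone H2AX and the checkpoint kinases, which hold the cell cycle. A break can be rejoined directly by end joining, which works throughout the cell cycle, or be resected and copied from the sister chromatid by homologous recombination, which needs a replicated chromosome and so works in S and G2 phase. The Fanconi anaemia pathway unhooks crosslinks between strands, and cohesin holds sister chromatids together. Many of these proteins are controlled mainly by phosphorylation and ubiquitin marks, which a transcript count does not measure.

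The labels name no culture, embryo or animal for any cell, which leaves 1 sample per group. What follows describes these cells, and no test between the groups was possible. Gene reads of a group's cells were added up and scaled to a common total (CPM). The log2 ratio is that of the cells with micronuclei over the cells without, with 1 CPM added to each. The 95% intervals are exact Poisson intervals for summed reads and Clopper-Pearson intervals for shares of cells, and both cover counting error only. Beside a count of 0 in the text, the limit given is the level or share that 3 reads or 3 cells would make. Gene reads per cell ranged from 57514 to 1794113 in cells with micronuclei (median 281800) and from 56766 to 2023111 in cells without (median 736715).

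Some libraries stood apart from their label or from the rest. The 12 fibroblast markers summed to 4530 to 17815 CPM per cell with micronuclei and 6455 to 19552 CPM per cell without, whereas the 3 endothelial and the 4 epithelial markers in the table each summed to at most 33.4 CPM in any cell. Macrophage transcripts went against the MEF label in cell 10 with micronuclei, in which 11 of 12 macrophage markers had at least 5 reads and their sum was 16674.5 CPM. The same cell also had at least 5 reads of 10 fibroblast markers. Cells 1, 4, 10 and 18 with micronuclei had 2 or more macrophage markers, against 0 of the cells without micronuclei. Cell 6 with micronuclei had at least 5 reads of only 1 macrophage marker, but its marker sum was 1452.5 CPM. It was not counted among those 4 cells. Low-quality libraries, with under 4000 genes or over 9% mitochondrial reads, were cells 4, 6, 18 and 21 with micronuclei and cells 1 and 5 without. Values without the 4 cells with macrophage markers or without the 6 low-quality cells are given beside the genes whose ratio they moved most.

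Every one of the 33 genes was sparse. At least 1 read was counted for all 33, but the lowest cell of both groups stood at 0 for each of them, so below only the median and the highest cell are given. Some of these highest values rest on a few reads in shallow libraries. Brca1 had 2 reads in its highest cell with micronuclei, cell 19. In cell 2 without micronuclei, the highest without for each, Fancd2 had 5 reads, Mre11a and Brip1 3 each and Mdc1 1. For 22 genes the median cell was at 0 CPM in both groups, and for 7 genes more than 50% of the reads came from 1 cell. Cells with micronuclei had at least 5 reads of a median of 8 of the genes (SD 5.32, range 1 to 22), and cells without had a median of 7 (SD 4.17, range 2 to 16). That difference was smaller than either SD and had no fixed direction: with 10 reads as the minimum the medians were 5 with micronuclei and 6.5 without, and at 100000 reads per cell 3.5 with and 4 without. The CPM of all 33 genes together had a median of 516.3 per cell with micronuclei (SD 330.1, range 198.3 to 1530.1) and 473.1 per cell without (SD 481.4, range 187.7 to 2029.2), and the groups overlapped over nearly the whole range. The log2 ratio of these medians was 0.13, against −0.10 for the means and −0.10 for the medians at 100000 reads per cell. The richest cells were cell 9 with micronuclei, with at least 5 reads of 22 genes, and cell 10 without micronuclei, with 16.

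**Figure D1:**
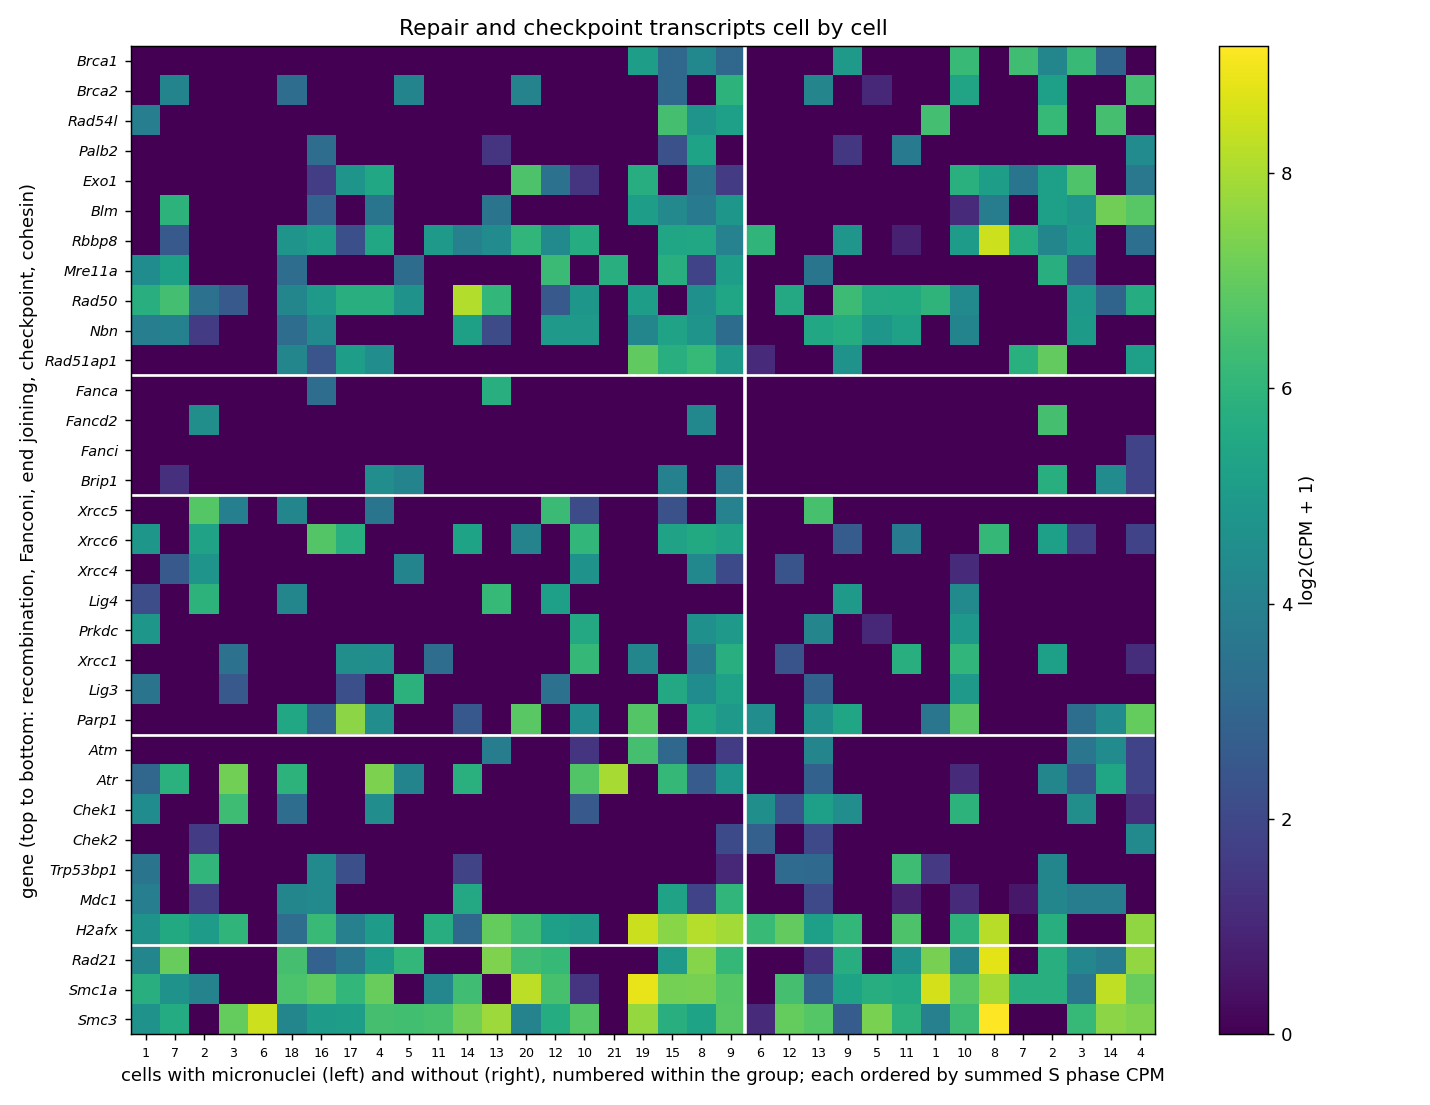
Level of each of the 33 genes (rows) in each cell (columns), as log2(CPM + 1) by colour, with the 21 cells with micronuclei left of the white line and the 14 cells without to its right, each side ordered from low to high summed S phase transcripts. Most fields are at 0. The fullest columns with micronuclei, cells 9 and 8, stand at the S phase-rich end of their side, while of the fullest without, cells 4 and 10, the first stands at that end and the other near the middle.

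The genes did not differ in 1 direction. Genes counted as measured reached 5 CPM over both groups together and 5 reads in 5 or more cells, as 21 of the 33 and 8390 genes in all did. Of the 21, 6 were 2-fold or more higher in cells with micronuclei, or 28.6%, where 22.9% of all measured genes were. On the other side 5 were 2-fold or more lower, or 23.8%, where 14.7% of all measured genes were. The filter can let a gene in through the group in which it is high, so these shares are read only against the same shares of all genes, and with 21 genes they stand for 6 and 5 items. The median log2 ratio was −0.33 over the 21 and 0.15 over all 8390 genes (−0.27 and 0.05 with equal weight for each cell).

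A direction was called stable when summed reads, equal weights and each of the 35 ratios with 1 cell left out had the same sign. This held for 6 genes that were higher in cells with micronuclei, Atr, Mre11a, Mdc1, Lig4, Rad50 and Xrcc6, which is 28.6% of 21, where 33.5% of all measured genes were higher in this way. It held for 5 that were lower, Brca1, Exo1, Rbbp8, Chek1 and Smc1a, which is 23.8%, where 20.1% of all measured genes were. The numbers of genes with a stable direction were thus close to those of genes at large. The number that were 2-fold or more lower was itself set by single cells, at 3 without cell 10 and 8 without cell 11 of the cells without micronuclei.

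**Figure D2:**
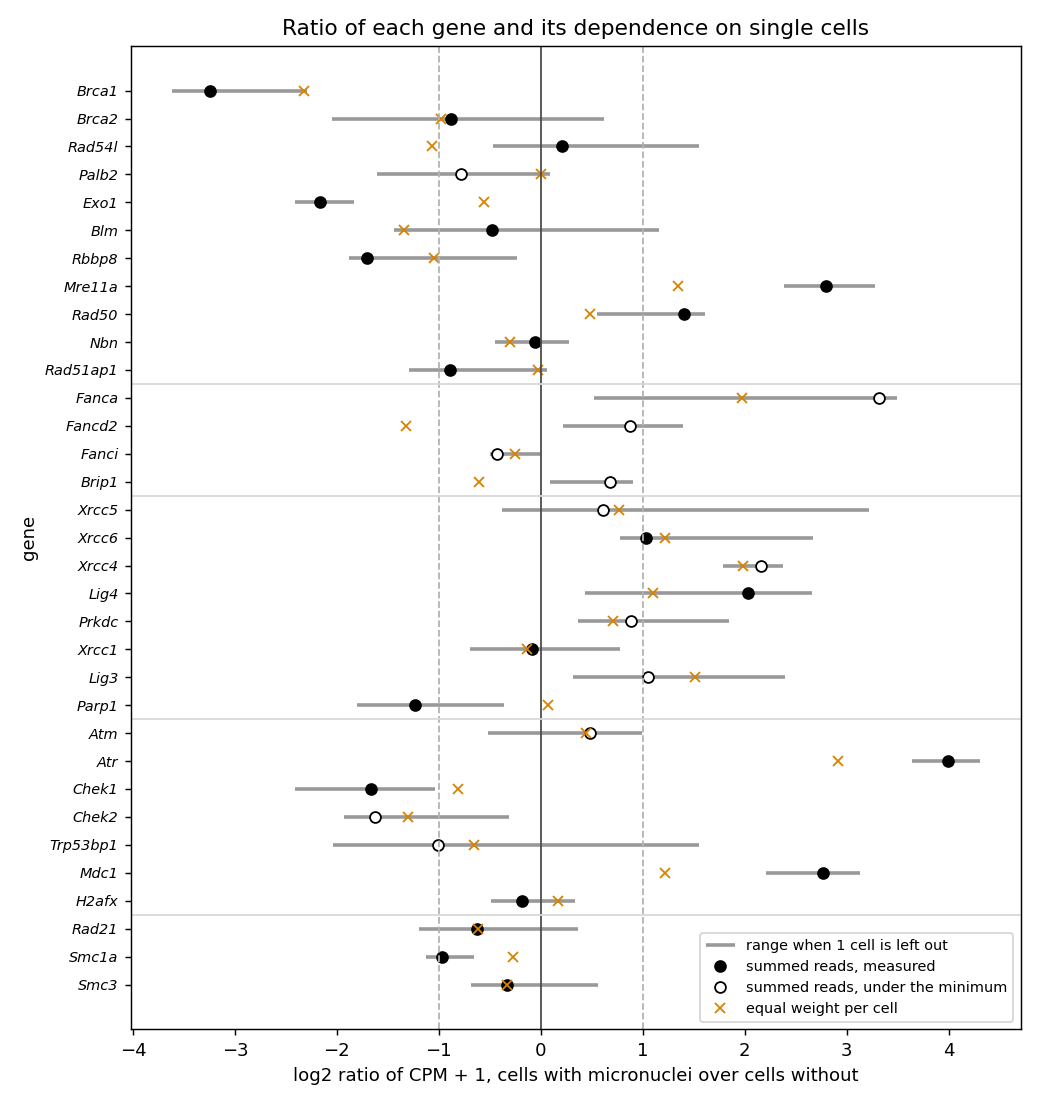
Log2 ratio of CPM + 1 (cells with micronuclei over cells without) of each gene from summed reads (circles, open where the gene was under the minimum for a measured gene), with equal weight per cell (crosses) and over the 35 ratios with 1 cell left out (grey bars). Dashed lines mark 2-fold. Atr stands farthest to the right at 3.99 and Brca1 farthest to the left at −3.25, and most bars cross a dashed line or 0.

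Among the measured genes, the kinase gene Atr and the sensor and adaptor genes Mre11a and Mdc1 stand at the higher end of that range. Brca1 stands at the lower end. For each of these genes, the 250 bases before the transcription start (RefSeq, GRCm38.p6) are shown. The letters of 3 promoter motifs of the cell cycle are in capitals, since the relation to cell cycle transcripts is described further on. Searched on both strands were the E2F motif (TTCCCGC or TTCGCGC or TTGCCGC or TTGGCGC), the cell cycle homology region (TTTGAA or TTCGAA) and the CCAAT box (CCAAT). The windows lie at chr11:101551956-101552205 (minus strand) for Brca1, chr9:95857347-95857596 (plus) for Atr, chr9:14784404-14784653 (plus) for Mre11a and chr17:35841248-35841497 (plus) for Mdc1.
Brca1: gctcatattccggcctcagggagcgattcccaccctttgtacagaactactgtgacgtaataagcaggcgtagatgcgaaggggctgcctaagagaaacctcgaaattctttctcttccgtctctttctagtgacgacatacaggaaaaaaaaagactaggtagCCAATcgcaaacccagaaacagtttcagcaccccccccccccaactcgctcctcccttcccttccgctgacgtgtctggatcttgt
Atr: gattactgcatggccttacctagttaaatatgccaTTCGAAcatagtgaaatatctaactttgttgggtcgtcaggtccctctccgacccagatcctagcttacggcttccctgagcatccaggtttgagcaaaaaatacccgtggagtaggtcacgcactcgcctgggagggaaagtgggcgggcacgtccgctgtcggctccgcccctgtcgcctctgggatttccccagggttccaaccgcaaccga
Mre11a: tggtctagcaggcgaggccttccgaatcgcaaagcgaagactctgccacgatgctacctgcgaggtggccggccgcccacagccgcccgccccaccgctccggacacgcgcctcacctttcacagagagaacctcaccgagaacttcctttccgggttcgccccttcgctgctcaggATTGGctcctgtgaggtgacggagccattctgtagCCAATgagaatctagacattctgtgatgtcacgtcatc
Mdc1: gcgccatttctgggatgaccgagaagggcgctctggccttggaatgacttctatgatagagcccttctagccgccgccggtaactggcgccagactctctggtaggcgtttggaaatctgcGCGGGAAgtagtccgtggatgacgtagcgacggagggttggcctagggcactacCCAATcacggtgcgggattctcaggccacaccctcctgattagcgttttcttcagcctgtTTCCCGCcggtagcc
The Brca1 window holds 1 CCAAT box, 86 bases before the start. Atr holds TTCGAA 215 bases before the start, which reads the same on both strands. Mre11a holds a CCAAT box on the minus strand at 73 bases and another on the plus strand at 38 bases. Mdc1 holds E2F letters on the minus strand at 129 bases and on the plus strand at 15 bases, and a CCAAT box at 75 bases. Windows were found for 25 of the 33 genes. E2F letters stood in 7 of the 25 (28%, in Brca2, Blm, Xrcc6, Lig4, Xrcc4, Chek2 and Mdc1), in 15.7% of the windows of measured genes and in 7.97% of all 27025 windows. The CCAAT box stood in 13 of 25 (52%), against 37.1% of measured genes and 34.5% of all, and the cell cycle homology region in 1 of 25 (4%), against 11.8% and 17.4%. The 7 genes with E2F letters include genes higher and genes lower in cells with micronuclei.

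Among the genes of homologous recombination, Brca1, Exo1 and Rbbp8 were lower in summed reads in cells with micronuclei, while Mre11a and Rad50, 2 of the 3 genes of the sensor complex, were higher. Brca1, a ubiquitin ligase that promotes the resection of breaks (chr11:101488764-101551955), had at least 5 reads in 2 of 21 cells with micronuclei and 4 of 14 without. Its highest cell was at 34.8 CPM with micronuclei and 81.1 CPM without, both medians were 0, and 3 cells without micronuclei lay above every cell with them. Summed, Brca1 was at 1.62 CPM (0.962 to 2.57) with micronuclei and 23.9 CPM (21.2 to 26.9) without, a log2 ratio of −3.25. Cell 7 without micronuclei gave 55.4% of its reads, and the log2 ratio was −2.30 without that cell, −2.32 with equal weights and −1.47 by mean log2(CPM + 1). At 100000 reads per cell, which 18 cells with and 13 without reached, 5 reads of Brca1 were found in 0 of 18 cells with micronuclei, which allows a share of up to 16.7%, and in 3 of 13 without.

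Exo1, an exonuclease that resects broken ends (chr1:175880581-175913489), was at 2.71 CPM (1.83 to 3.86) with micronuclei and 15.6 CPM (13.4 to 18.03) without, a log2 ratio of −2.16. At least 5 reads were found in 2 of 21 cells with and 5 of 14 without. The highest cells were at 97.7 CPM with micronuclei, from 6 reads in cell 20, and at 100.8 CPM without, from 45 reads in cell 3. Both medians were 0, and the Exo1 ratio was −0.56 with equal weights and −0.51 by mean log2(CPM + 1). Brca1 and Exo1 were both detected with 5 reads in 0 cells with micronuclei and in 3 cells without.

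Rbbp8 encodes CtIP, which starts resection together with the Mre11 complex. Its medians were close, at 15.7 CPM with micronuclei and 13.4 CPM without, and it had at least 5 reads in 9 of 21 cells with and 7 of 14 without. The highest cells were at 65.1 CPM with micronuclei and 357.3 CPM without. The summed 18.7 CPM (16.2 to 21.4) with micronuclei against 63.1 CPM (58.6 to 67.9) without gave a log2 ratio of −1.70, but cell 8 without micronuclei held 53.9% of the reads, and the ratio was −0.24 without it, −1.05 with equal weights and −0.02 by mean log2(CPM + 1).

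The 3 genes of the sensor complex differed from one another. Mre11a, its nuclease (chr9:14784654-14837123), had at least 5 reads in 6 of 21 cells with micronuclei and 1 of 14 without. The highest cells were at 74.7 CPM with micronuclei and 52.8 CPM without, both medians were 0, and 3 cells with micronuclei lay above every cell without. Summed it was at 13.1 CPM (11.04 to 15.4) with and 1.03 CPM (0.534 to 1.81) without, a log2 ratio of 2.79, between 2.39 and 3.27 whichever cell was left out, 1.34 with equal weights and 1.11 by mean log2(CPM + 1). Its exons overlap Ankrd49 on the other strand, and without strand information reads in the shared stretch cannot be told apart. Ankrd49 itself was lower, at 29.3 CPM with micronuclei and 102.7 CPM without. Rad50, the ATPase that tethers ends (chr11:53649519-53707319), was much more widely detected, with at least 5 reads in 11 of 21 cells with and 8 of 14 without and medians of 25.1 CPM with micronuclei and 24.6 CPM without. Its summed 70.5 CPM (65.7 to 75.7) with micronuclei against 26.1 CPM (23.2 to 29.2) without gave a log2 ratio of 1.40. Cell 14 with micronuclei, at 280.4 CPM, held 37.9% of the reads, and the ratio was 0.55 without that cell; the highest cell without micronuclei was at 77.0 CPM. With equal weights the Rad50 ratio was 0.49. Nbn, the regulatory subunit, was at 13.4 CPM with micronuclei and 14.0 CPM without (9 of 21 cells with and 6 of 14 without, log2 ratio −0.06, and −0.45 to 0.28 over the leave-outs). All 3 genes had 5 reads in the same cell in 2 cells with micronuclei and 0 without.

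The other genes of recombination had no stable direction. Brca2, a mediator of homologous recombination, was at 7.85 CPM with micronuclei and 15.3 CPM without (2 of 21 cells with and 3 of 14 without, log2 ratio −0.88, and 0.62 without cell 4 without micronuclei). Blm, the Bloom helicase, was at 13.4 CPM with micronuclei and 19.1 CPM without (5 of 21 cells with and 4 of 14 without, log2 ratio −0.48, and 1.16 without that same cell). Rad51ap1, a DNA-binding protein of homologous recombination, was at 8.21 CPM with micronuclei and 16.1 CPM without (5 of 21 cells with and 4 of 14 without, log2 ratio −0.89, and 0.06 without cell 7 without micronuclei). Each of these 3 changed sign without the 1 cell named, and leaving out a cell with micronuclei moved it the other way. The ratio was then −2.04 for Brca2 (cell 9), −1.44 for Blm (cell 7) and −1.29 for Rad51ap1 (cell 8). Rad54l, a motor protein of strand exchange, was at 6.41 CPM with micronuclei and 5.43 CPM without (3 of 21 cells with and 2 of 14 without, log2 ratio 0.20, and −0.47 to 1.55 over the leave-outs, the highest without the low-quality cell 1 without micronuclei; 1.56 without the 6 low-quality cells), and Palb2, the bridge between the Brca1 and Brca2 proteins, did not reach the minimum at 2.08 CPM with micronuclei and 4.31 CPM without (1 of 21 cells with and 2 of 14 without, log2 ratio −0.79).

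Summed per cell, the 11 recombination genes had a median of 109.5 CPM with micronuclei (SD 105.5, range 0 to 331.6) and 204.5 CPM without (SD 121.9, range 45.9 to 403.9). The median was lower with micronuclei by less than either SD, and the ranges overlapped. Transcripts of S phase also had a lower median: 35 S phase genes, none of them among the 33, summed to a median of 1579.2 CPM per cell with micronuclei (range 280.3 to 4730.4) and 2220.7 CPM without (range 506.3 to 5030.8). Their part in the difference of the recombination genes was not tested.

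**Figure D3:**
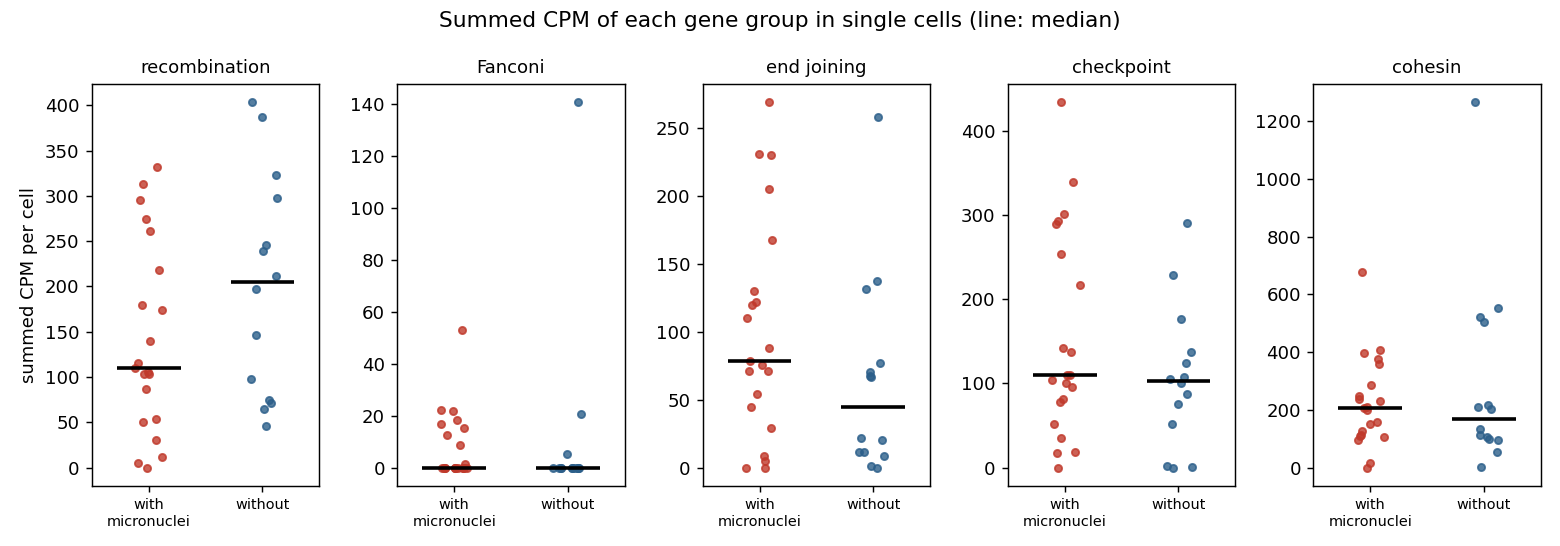
Summed CPM of each gene group (panels) in single cells (points), cells with micronuclei left and cells without right, with the median as a black line. The medians of cells with micronuclei, each before that of cells without, were 109.5 and 204.5 CPM for recombination, 0 and 0 for Fanconi anaemia, 78.1 and 44.4 for end joining, 110.1 and 103.1 for checkpoint signalling and 207.5 and 167.1 for cohesin.

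The genes of the Fanconi anaemia pathway were barely detected in either group, and none of the 4 was measured. Fancd2, which is monoubiquitinated at stalled forks (chr6:113531682-113597017), had at least 5 reads in 2 of 21 cells with and 1 of 14 without. Its highest cells were at 22.1 CPM with micronuclei and 88.1 CPM without, its medians were 0, and it summed to 18 reads (1.62 CPM) with and 5 reads (0.431 CPM) without, a log2 ratio of 0.88. Fanci, its partner, had 0 reads in cells with micronuclei and 4 reads (0.344 CPM) in cell 4 without, where 0 reads allow up to 0.271 CPM. Fanca, of the core complex, had 99 reads (8.93 CPM) with micronuclei and 0 without, at least 34.6-fold higher with 3 reads set for the group at 0. That bound rests on cell 13 with micronuclei, which at 52.95 CPM held 95 of the 99 reads; the log2 ratio was 3.31 with it and 0.52 without it. Only 1 of 21 cells with micronuclei reached 5 reads of Fanca, and 0 of 14 without, which allows a share of up to 21.4%. Brip1, a helicase that binds the Brca1 protein, was at 1.98 CPM with micronuclei and 0.861 CPM without (1 of 21 cells with and 0 of 14 without, medians 0, log2 ratio 0.68), and its highest cells were at 21.7 CPM with micronuclei and 52.8 CPM without.

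Of the 8 genes of end joining and break ligation 4 were measured: Xrcc6 and Lig4 were 2-fold or more higher in summed reads in cells with micronuclei, Parp1 was 2-fold or more lower, and Xrcc1 lay between. Single cells decided most of these values. Xrcc6, which encodes the Ku70 subunit that caps broken ends (chr15:81987835-82040085), had at least 5 reads in 9 of 21 cells with micronuclei and 2 of 14 without. Its highest cells were at 103.6 CPM with micronuclei and 67.7 CPM without, and both medians were 0. It summed to 22.8 CPM (20.1 to 25.8) with and 10.7 CPM (8.88 to 12.7) without, a log2 ratio of 1.03. The value stood close to the threshold, and 16 of the 35 leave-outs put it below 1, down to 0.77; these were cells 2, 8, 9, 10, 14, 16 and 17 with micronuclei and cells 1, 3, 4, 5, 6, 7, 9, 10 and 13 without. Leaving out cell 8 without micronuclei gave 2.67, and 100000 reads per cell 2.23. The marker-bearing cell 10 with micronuclei held 41 of the 253 reads, and the ratio was 0.86 without it. The exons of Xrcc6 overlap Desi1 on the other strand, which was at 50.7 CPM with micronuclei and 94.7 CPM without. Xrcc5, the Ku80 subunit, was at 8.30 CPM with micronuclei and 5.08 CPM without (3 of 21 cells with and 1 of 14 without, log2 ratio 0.61) and was not measured. Both Ku genes had 5 reads in the same cell in 2 cells with micronuclei and 0 without.

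Lig4, the ligase that seals the break (chr8:9969049-9977686), was at 15.1 CPM (12.9 to 17.5) with micronuclei and 2.93 CPM (2.03 to 4.09) without, a log2 ratio of 2.03. At least 5 reads were found in 3 of 21 cells with and 2 of 14 without, both medians were 0, and the highest cells were at 70.8 CPM with micronuclei and 30.4 CPM without. Cell 13 with micronuclei held 63.2% of the reads, and the ratio was 0.43 without it, 2.66 without cell 9 and 2.64 without cell 10 of the cells without micronuclei. The Lig4 ratio was 1.10 with equal weights, 0.46 by mean log2(CPM + 1) and 0.10 at 100000 reads per cell. Xrcc4, the partner of this ligase, was too rare to be measured, with 47 reads with micronuclei against 2 reads without. At least 5 reads were found in 4 of 21 cells with and 0 of 14 without. Its CPM ratio was 24.6 (6.45 to 209.2) with nothing added, and its log2 ratio 2.16 with 1 CPM added. That log2 ratio was 0.84 with 5 CPM added and 0.82 by mean log2(CPM + 1). The marker-bearing cell 10 with micronuclei held 15 of the 47 reads, and the log2 ratio was 1.79 without it. Xrcc4 exons overlap Tmem167, which was at 443.6 CPM with micronuclei and 621.7 CPM without. Prkdc, the kinase held by Ku, was at 6.59 CPM with micronuclei and 3.10 CPM without (4 of 21 cells with and 2 of 14 without, log2 ratio 0.89, and 0.37 to 1.84 over the leave-outs) and was not measured. Without the 4 cells with macrophage markers its ratio was 0.20.

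The genes of single-strand break repair, which also serve back-up end joining, went in different directions. Parp1, the enzyme that marks breaks with ADP-ribose chains (chr1:180568924-180601254), had at least 5 reads in 8 of 21 cells with and 6 of 14 without. Its medians were 0 with micronuclei and 10.0 CPM without, and its highest cells 190.8 CPM with and 127.2 CPM without. Parp1 summed to 12.5 CPM (10.5 to 14.8) with micronuclei and 30.8 CPM (27.7 to 34.2) without, a log2 ratio of −1.23, and 0.07 with equal weights, −0.38 by mean log2(CPM + 1) and −0.70 at 100000 reads per cell. The ratio was −0.36 without cell 4 and −0.90 without cell 10 of the cells without micronuclei, and −0.996 without cell 13 with micronuclei. Xrcc1, a scaffold protein, was at 10.7 CPM with micronuclei and 11.5 CPM without (5 of 21 cells with and 2 of 14 without, log2 ratio −0.09, and −0.69 to 0.78 over the leave-outs, and −0.55 without the 4 cells with macrophage markers). Lig3, the ligase bound to Xrcc1, was at 6.22 CPM with micronuclei and 2.50 CPM without (4 of 21 cells with and 1 of 14 without, log2 ratio 1.05) and was not measured. Summed per cell, the 8 genes had a median of 78.1 CPM with micronuclei (SD 80.9) and 44.4 CPM without (SD 72.4), a difference smaller than either SD.

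Atr had the highest log2 ratio of the 21 measured genes and, of the 33, the largest difference in the share of cells with 5 reads. The kinase is activated by single-stranded DNA at stalled forks and resected breaks (chr9:95857597-95951781). The median cell was at 7.10 CPM with micronuclei and 0 CPM without, the highest at 253.8 CPM with and 41.05 CPM without, and 8 cells with micronuclei lay above every cell without. Of these 8, cells 4, 18 and 21 were low-quality and cells 4, 10 and 18 had macrophage markers, while cells 3, 7, 14 and 15 had neither trait. The highest cell without micronuclei, cell 14, held 6 Atr reads. Atr had at least 5 reads in 9 of 21 cells with micronuclei (42.9%, 21.8 to 66.0%) and in 1 of 14 without (7.14%, 0.181 to 33.9%). With 1 read as the minimum the groups lay closer, at 12 of 21 cells with micronuclei and 6 of 14 without. The median cell had 281800 gene reads and 6812 genes with a read with micronuclei, against 736715 gene reads and 6082 genes without. The part of the number of genes per cell in the Atr difference was not tested. At 100000 reads per cell the numbers were 8 of 18 cells with micronuclei and 0 of 13 without, where 0 allows a share of up to 23.1%. Summed, Atr was at 39.5 CPM (35.9 to 43.4) with micronuclei and 1.55 CPM (0.919 to 2.45) without, a log2 ratio of 3.99. The ratio lay between 3.64 and 4.31 whichever cell was left out, and was 2.91 with equal weights, 1.94 by mean log2(CPM + 1), 3.83 without the 4 cells with macrophage markers and 3.47 without the 6 low-quality cells. The highest cell, cell 21 with micronuclei, is one of those 6 and held 24.1% of the reads. Atr exons overlap Gm16794 on the other strand, which was at 0.18 CPM with micronuclei and 0 CPM without, and 1700065D16Rik, which was not analysed here.

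The kinase genes around Atr did not share its pattern. Chek1, the kinase that Atr activates (chr9:36708482-36727065), was lower at 2.53 CPM (1.68 to 3.65) with micronuclei against 10.2 CPM (8.41 to 12.2) without, a log2 ratio of −1.66. It had at least 5 reads in 2 of 21 cells with and 5 of 14 without, medians of 0 CPM with and 0.659 CPM without, and highest cells at 78.6 CPM with micronuclei and 60.4 CPM without. The ratio was −2.41 without cell 3 with micronuclei, −1.03 without cell 10 of the cells without, −0.81 with equal weights, −2.10 without the 4 cells with macrophage markers and 0.06 at 100000 reads per cell. Atr and Chek1 both had 5 reads in 1 cell with micronuclei and in 0 cells without. Atm, the kinase of double-strand breaks, was at 3.16 CPM with micronuclei and 1.98 CPM without (2 of 21 cells with and 2 of 14 without, log2 ratio 0.48), and Chek2, which Atm activates, at 0.361 CPM with micronuclei and 3.19 CPM without (0 of 21 cells with and 2 of 14 without, log2 ratio −1.62, and −0.32 without cell 4 without micronuclei). Neither was measured.

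Of the chromatin adaptors that assemble on phosphorylated H2AX, Mdc1 (chr17:35841515-35859670) was higher at 14.0 CPM (11.9 to 16.4) with micronuclei against 1.21 CPM (0.659 to 2.02) without. Its log2 ratio of 2.76 lay between 2.21 and 3.13 whichever cell was left out, but was 1.22 with equal weight per cell and 0.38 as the difference of mean log2(CPM + 1) over cells. Cells 14 and 9 with micronuclei held 66 and 62 of the 155 Mdc1 reads of their group. With 1 read as the minimum, Mdc1 was found in 8 of 21 cells with micronuclei and 7 of 14 without. At least 5 reads were found in 4 of 21 cells with and 1 of 14 without; the medians were 0 CPM with and 0.247 CPM without, the highest cells 65.0 CPM with micronuclei and 17.6 CPM without, and 4 cells with micronuclei lay above every cell without. Trp53bp1, which encodes 53BP1 and restrains resection, was at 4.51 CPM with micronuclei and 10.1 CPM without (2 of 21 cells with and 2 of 14 without, log2 ratio −1.01) and was not measured. Cell 11 without micronuclei held 64.7% of its reads, and the ratio was 1.55 without it and −2.04 without cell 2 with micronuclei.

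H2afx, the gene of the histone variant H2AX itself (chr9:44334694-44336077, with Gm44335 on the other strand, which was not analysed here), was among the most widely detected of the 33, with at least 5 reads in 15 of 21 cells with and 8 of 14 without. Its median was 34.9 CPM with micronuclei and 57.2 CPM without, and its highest cells were at 347.7 CPM with and 291.1 CPM without. The summed 79.7 CPM (74.5 to 85.1) with micronuclei against 90.9 CPM (85.45 to 96.5) without gave a log2 ratio of −0.19, and 0.33 without cell 8 without micronuclei. The H2afx ratio was also above 0 with equal weights (0.165) and by mean log2(CPM + 1) (0.776). Per kilobase of exon H2afx stood above the other 32 genes, at 57.6 CPM per kb with micronuclei and 65.6 CPM per kb without. Summed per cell, the 7 checkpoint genes had close medians of 110.1 CPM with micronuclei (SD 121.7) and 103.1 CPM without (SD 84.7). Most of this sum was H2afx, which gave 79.7 of the 143.7 CPM summed with micronuclei and 90.9 of the 119.0 CPM without.

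**Figure D4:**
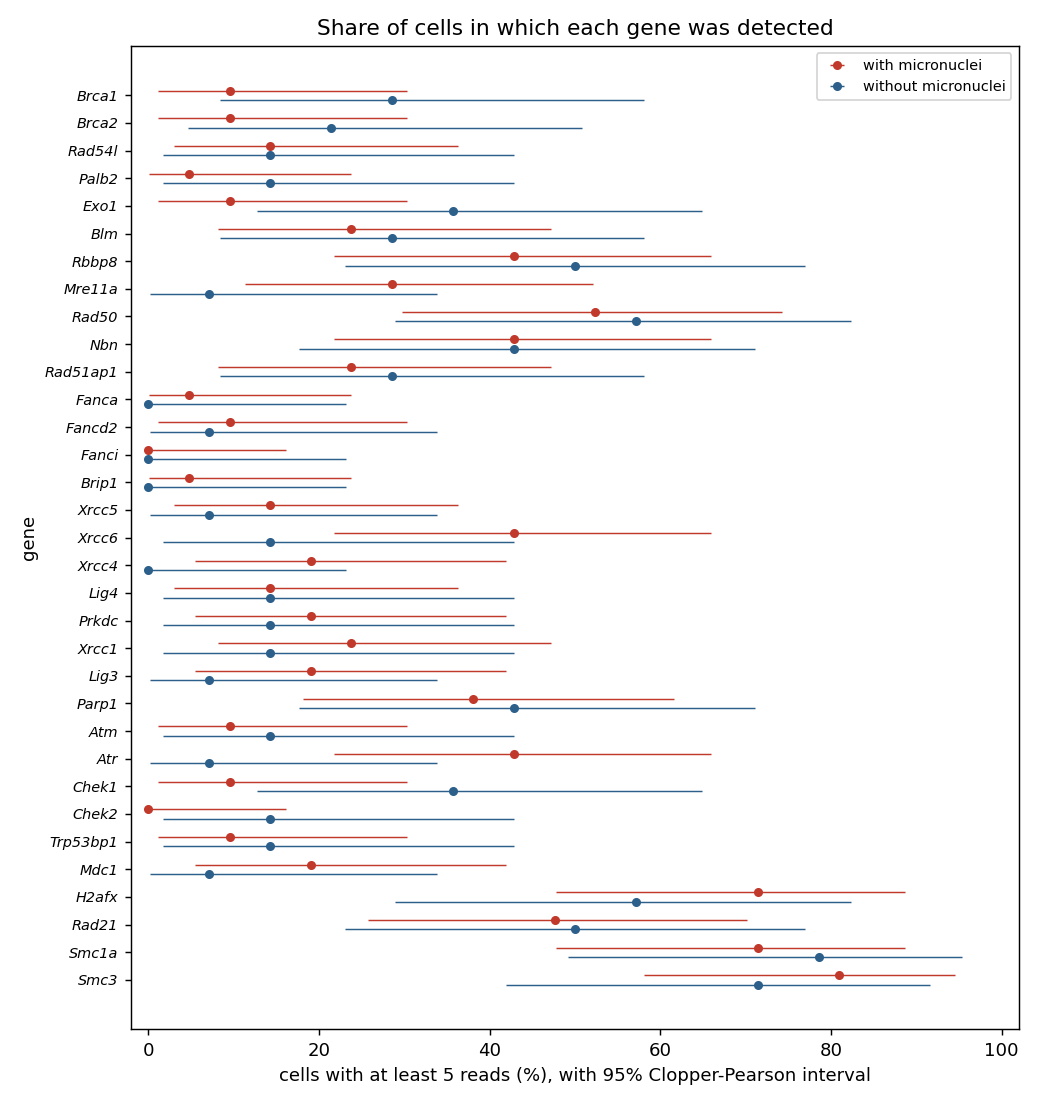
Percentage of cells with at least 5 reads of each gene, with 95% Clopper-Pearson intervals, for cells with micronuclei (red, upper point of each pair) and cells without (blue, lower point). The intervals of the groups overlap for each of the 33 genes; the points lie farthest apart for Atr, at 42.9% with micronuclei and 7.14% without.

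Of the 3 cohesin genes, Smc3 and Smc1a had 5 reads in more cells than any other of the 33, and the summed and the median level of Smc1a differed in direction. Smc1a, an ATPase subunit of the ring (chrX:152016428-152062694), had at least 5 reads in 15 of 21 cells with and 11 of 14 without. Its median was higher with micronuclei, at 67.3 CPM against 53.1 CPM without, and its highest cells were at 469.5 CPM with and 380.0 CPM without. Its sum was lower with micronuclei, at 50.8 CPM (46.7 to 55.2), against 100.5 CPM (94.8 to 106.4) without, a log2 ratio of −0.97. The Smc1a ratio was −0.27 with equal weights and −1.02 by mean log2(CPM + 1). Smc3, the other ATPase subunit (chr19:53600398-53645833), was at 106.2 CPM (100.2 to 112.4) with micronuclei and 133.7 CPM (127.1 to 140.5) without. It had at least 5 reads in 17 of 21 cells with and 10 of 14 without, medians of 53.4 CPM with and 73.2 CPM without and highest cells at 358.6 CPM with and 579.4 CPM without. Its log2 ratio was −0.33, and 0.56 without cell 8 without micronuclei. Rad21, the subunit that separase cleaves to part sister chromatids, was at 62.1 CPM with micronuclei and 96.1 CPM without (10 of 21 cells with and 7 of 14 without, log2 ratio −0.62, and 0.36 without the same cell). Without cell 13 with micronuclei the ratio was −1.19 for Rad21 and −0.68 for Smc3. Cell 8 without micronuclei had 1266.6 CPM of cohesin transcripts in all, against a median of 207.5 CPM (SD 155.7) with micronuclei and 167.1 CPM (SD 333.3) without. All 3 genes had at least 5 reads in the same cell in 6 cells of each group.

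The wider repair pathways showed the same mixture. Of 114 further genes of 9 repair lists, 73 were measured, and 16 were 2-fold or more higher and 21 were 2-fold or more lower in cells with micronuclei, with a median log2 ratio of −0.19. These are 21.9% and 28.8% of the 73, beside the 22.9% and 14.7% of all measured genes. By list, other checkpoint genes had 5 higher and 4 lower of 12, other Fanconi anaemia genes 1 higher and 5 lower of 10, and nucleotide excision repair genes 3 higher and 1 lower of 7. Of the 73, 8 genes are named by the size of their smallest ratio over summed reads, equal weights and leave-outs. On the higher side were the clamp genes Rad1, at 33.6 CPM with micronuclei and 5.68 CPM without (log2 ratio 2.37), and Rad9a, at 60.6 CPM with micronuclei and 5.86 CPM without (3.17). Both encode subunits of the ring that helps to activate Atr. Rad9a had 63.9% of its reads in cell 13 with micronuclei; its log2 ratio was 1.71 without that cell and 4.998 without cell 10 of the cells without. Rad1 was at 1.81 without cell 13 with micronuclei and 4.09 without cell 5 of the cells without. Rnf168, the ligase that marks chromatin for 53BP1, was at 40.7 CPM with micronuclei and 6.63 CPM without (2.45), and Uimc1, which brings Brca1 to those marks, at 41.95 CPM with micronuclei and 7.41 CPM without (2.35). Tdp2, which frees trapped topoisomerase from ends, was at 26.1 CPM with micronuclei and 6.37 CPM without (1.88), and Mau2, which loads cohesin, at 18.1 CPM with micronuclei and 1.98 CPM without (2.68). Without 1 cell the ratio of Rnf168 ran from 1.51 (cell 14 with micronuclei) to 3.18 (cell 11 without), that of Uimc1 from 1.85 (cell 11 with) to 3.91 (cell 10 without), and that of Mau2 from 1.61 (cell 6 with) to 3.82 (cell 3 without). On the lower side were Rpa1, of the protein that coats single-stranded DNA, at 53.5 CPM with micronuclei and 220.5 CPM without (−2.02), and Top3a, a topoisomerase of the Blm complex, at 1.98 CPM with micronuclei and 50.98 CPM without (−4.12). Cell 1 without micronuclei gave 75.2% of the Top3a reads, and the log2 ratio was −2.09 when it was left out, and −4.90 without cell 12 with micronuclei.

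Across cells, the relation of repair transcripts to those of the cell cycle and of the p53 response differed by gene group. Pearson correlations were taken on log2(summed CPM + 1) of both sums, a scale on which cells at or near 0 CPM lie far from the rest. Over all 35 cells the summed CPM of the 33 genes had a Pearson correlation of 0.69 and a Spearman correlation of 0.72 with 26 genes of G2 and mitosis, and 0.58 and 0.63 with the S phase genes. With 24 targets of p53, the transcription factor that halts damaged cells, they were 0.10 and 0.03. The G2 and mitosis genes themselves had a median of 756.1 CPM per cell with micronuclei (range 9.23 to 5873.6) and 730.3 CPM without (range 105.4 to 4468.5). Within the 21 cells with micronuclei the Spearman correlation with G2 and mitosis was 0.68, and within the 14 without 0.82. The 11 recombination genes went with S phase at 0.58 (Pearson) and 0.70 (Spearman). Spearman values were 0.57 within the cells with micronuclei and 0.84 within the cells without. The Pearson value was 0.61 without the 2 cells farthest from the median recombination sum on the log scale. These were cell 6 (0 CPM) and cell 3 (4.91 CPM) with micronuclei. With G2 and mitosis the recombination genes were at 0.29 (Pearson) and 0.55 (Spearman). Those Spearman correlations were 0.32 within the cells with micronuclei and 0.87 within the cells without. Cohesin went with G2 and mitosis at 0.66 (Pearson) and 0.60 (Spearman). The Pearson value was 0.43 without the 2 cells farthest from the median cohesin sum on the log scale. These were cell 21 with micronuclei (0 CPM) and cell 6 without (1.21 CPM), while the cohesin-rich cell 8 without micronuclei stayed in. With S phase, cohesin was at 0.32 (Pearson) and 0.39 (Spearman). The checkpoint genes, whose sum was mostly H2afx, went the other way by Pearson. They were at 0.40 with the p53 targets, against 0.14 with S phase and 0.19 with G2 and mitosis. By Spearman they were at 0.28, 0.32 and 0.37 with the same lists. The Pearson correlation of the checkpoint genes with the p53 targets was 0.20 without the 2 cells farthest from the median checkpoint sum on the log scale. These were cell 6 with micronuclei and cell 5 without, both at 0 CPM. The end joining genes were at 0.33 (Pearson) and 0.20 (Spearman) with the p53 targets, against 0.13 and 0.18 with S phase and 0.50 and 0.40 with G2 and mitosis. These values describe the cells: both sums of a cell share its library and its total, and the summed CPM of the 33 genes had a Spearman correlation of −0.07 with depth. Single pairs of genes were only loosely related. Among the 7 genes with at least 5 reads in 15 or more cells, the 21 Spearman correlations ran from −0.21 for Rbbp8 and Rad50 to 0.40 for Rad21 and Smc1a.

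**Figure D5:**
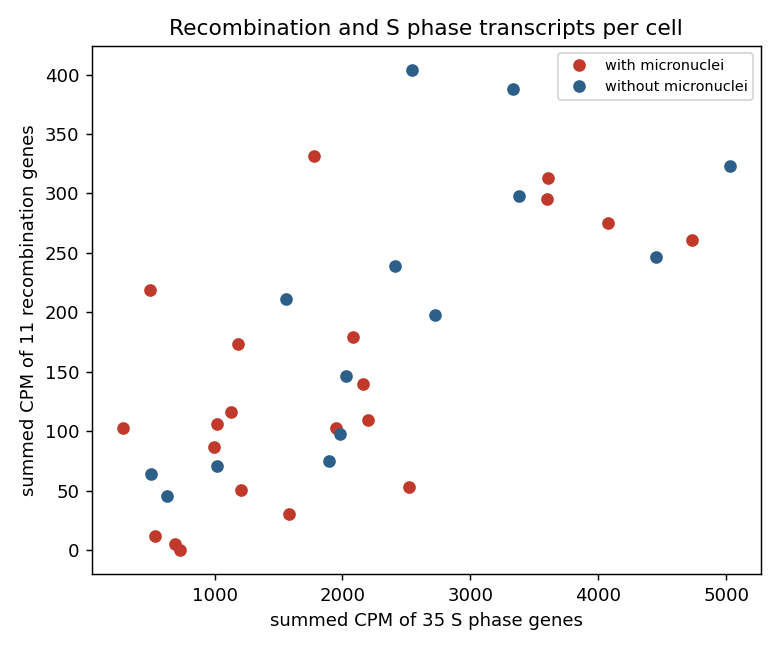
Summed CPM of the 11 recombination genes against summed CPM of 35 S phase genes, 1 point per cell, for cells with micronuclei (red) and without (blue). Cells with few S phase transcripts mostly also had few recombination transcripts, with a Spearman correlation of 0.70 over the 35 cells, and the groups are mixed along the trend.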

How the data were processed

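RNA of 35 single cells was measured, 21 with micronuclei and 14 without. The authors deposited whole-number read counts, not normalized, for 19085 genes and 62 spike-in RNAs, aligned with STAR to GRCm38.p5 per the submitters' processing notes. Counting with Rsubread and a scater filter (at most 10% spike-in, at least 2000 genes and 40000 counts) are given in the deposited phenotype table. No version and no strand setting is given in the sources used here. In 14 of the 33 genes, some exon bases are shared with a gene on the other strand, and reads in the shared stretch cannot be told apart. These genes are Brca2, Rad54l, Palb2, Rbbp8, Mre11a, Fanca, Fancd2, Fanci, Xrcc6, Xrcc4, Lig3, Atr, Trp53bp1 and H2afx. The length of the shared stretches is not given here. The 827 genes without reads stayed in the table. No doublet caller was run on hand-picked cells, no further cell was left out, and 0 of 595 pairs of cells were identical. No columns of other samples were present (0).

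Counts were summed per group (11084425 reads with micronuclei, 11612303 without), spike-ins left out, and scaled to CPM. Replicate numbers follow the order of the records and only name cells. Thinning drew 100000 reads per cell and left out 3 cells with micronuclei and 1 without. A group at 0 was set to 3 reads over the group for a fold. Intervals (95%) cover counting error only, as reads carry no molecular identifiers. Positions and exon lengths come from GENCODE M21 (GRCm38), and promoters from RefSeq (GRCm38.p6). Every gene of the list is named; the median and highest cell are given for measured genes of stable direction and the 2 most often detected of each role, and of other repair lists at most 8 genes past 2-fold. The genes and lists were chosen with earlier results of these data known. Tried as alternatives were mean log2 CPM, equal weights, TMM factors of edgeR 4.0.16 (1.05 and 0.952), 0.1 or 5 CPM added, no or a stricter filter (20 CPM, 10 cells), thinning, other read minimums (1 or 10), totals without mitochondrial genes, and leaving out low-quality cells, macrophage-marker cells or each cell. The sums and ratios were tested on simulated data. Software was R 4.3.3 and Python 3.11.15 with scipy 1.17.1, pandas 2.3.3, matplotlib 3.10.9 and numpy 2.4.6.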

Additional observations from a re-analysis of the deposited data

How the results depend on the processing

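With 1 sample per group no alternative has a test, and cell depth and single cells set what these values can show. The 6 higher and 5 lower genes (2-fold or more) became 3 and 3 by mean log2 CPM, where the median log2 ratio of the measured genes was 0.21 in place of −0.33 and that of all genes lay 0.15 higher. TMM factors gave 8 lower genes and moved the median of all genes by −0.13, the stricter filter, with 8 of the 33 genes left, gave 2 higher and 2 lower, and thinning, with 6 left, gave 2 higher and 0 lower. Leaving out 1 cell gave 3 to 8 lower genes, 4 to 7 higher ones and a median between −0.63 and −0.09. Parp1 turned to 0.0715 with equal weights and Chek1 to 0.0637 after thinning, the 2 turns among 121 values of the 11 genes past 2-fold outside the leave-outs; among 385 leave-out values 0 turned. The causes were not tested. The difference of the median number of genes with 5 reads and the ratio of summed levels moved by less than the spread between cells under each alternative run, but both changed sign in some of them. No paired analysis was possible because the replicate numbers only name cells and no result comes from a test.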
